A study of Mus musculus with 16 samples.

Results

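The proteasome genes described here are the protein-coding genes whose symbols begin with Psma, Psmb, Psmc, Psmd, Psme, Psmf or Psmg followed by a number. The 3 interferon-inducible catalytic subunits Psmb8, Psmb9 and Psmb10 were left out and serve as a comparison. The rule took 47 of the 55450 genes of the count table and set aside 4 Psm pseudogenes. RNA sequencing was done on tumor-infiltrating lymphocytes (TILs) from subcutaneous B16F10 tumors, a transplantable melanoma of C57BL/6 mice. The 4 groups of 4 libraries each were CD4+ and CD8+ TILs from wild-type (WT) C57BL/6J mice and from Sirt2-/- mice (B6.129-Sirt2tm1.1Fwa/J), which lack the NAD-dependent deacetylase SIRT2, all aged 7 to 8 weeks. All mice carried the tumor, and the Sirt2 deletion was in the germline, so that tumor-bearing host and T cells both lacked the gene. The labels do not say how CD4+ and CD8+ cells were parted, or whether any 2 libraries came from 1 mouse. P-values therefore measure the spread between these libraries, part of which may be technical.

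The proteasome degrades ubiquitin-tagged proteins and cuts many of the peptides that MHC class I presents. Its barrel-shaped core (20S) is built of outer alpha rings and inner beta rings, and 3 beta subunits, Psmb5, Psmb6 and Psmb7, carry the active sites. A regulatory cap (19S), with a ring of ATPases and a set of non-ATPase subunits, binds, unfolds and deubiquitinates substrates. Other caps open the core without ubiquitin: PSME1 with PSME2, induced by interferon gamma, the nuclear PSME3, and PSME4. In activated T cells, Psmb8, Psmb9 and Psmb10 replace the constitutive active subunits in newly assembled cores, which are then called immunoproteasomes.

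By role, the 47 genes were 7 subunits of the alpha ring, 7 of the beta ring, 6 ATPases of the cap, 11 non-ATPase subunits, 5 activators, 7 assembly chaperones and the inhibitor Psmf1. The other 3 were Psma8 and Psmb11, core subunits known from testis and from thymic epithelium, and Psmc3ip, which is matched by its symbol but encodes a cofactor of meiotic recombination and no proteasome subunit. Psmb11 had no count in any of the 16 libraries, and Psma8 had at most 4 counts in a library. The remaining 45 genes passed the filter on low counts in every comparison.

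Promoters are shown for some of the genes named in the results below. RefSeq promoters (GRCm38.p6, 250 bases before to 50 after the start) were found for 39 of the 47 genes, and 4 short motifs were searched on both strands. The motifs were chosen after the expression values were known. Capitals mark the core of the antioxidant response element, TGACNNNGC, which NFE2L1 binds to raise proteasome genes, in the promoters of the catalytic subunits Psmb5 and Psmb6 and of Psmd12. Matches on the opposite strand appear as the reverse complement. In Psmd12, in the cap subunit Psmd6 and in the activator Psme3, capitals mark CCGGAAG, a site of the ETS family. In Psme1 they mark AANNGAAA, the letters shared by sites of interferon regulatory factors, where 2 matches overlap.
Psmb5 promoter, chr14:54617946-54618245, minus strand: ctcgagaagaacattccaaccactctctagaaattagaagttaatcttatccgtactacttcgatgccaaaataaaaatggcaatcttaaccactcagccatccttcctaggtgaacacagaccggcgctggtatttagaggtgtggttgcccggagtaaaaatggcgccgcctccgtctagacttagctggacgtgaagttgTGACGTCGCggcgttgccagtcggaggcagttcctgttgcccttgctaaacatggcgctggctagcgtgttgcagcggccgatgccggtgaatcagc
Psmb6 promoter, chr11:70525107-70525406, plus strand: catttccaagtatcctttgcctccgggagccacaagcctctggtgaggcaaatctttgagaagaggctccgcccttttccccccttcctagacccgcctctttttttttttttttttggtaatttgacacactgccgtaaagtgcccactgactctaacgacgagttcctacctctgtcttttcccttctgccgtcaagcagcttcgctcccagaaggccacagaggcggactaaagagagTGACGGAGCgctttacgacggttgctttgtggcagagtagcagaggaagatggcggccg
Psmd12 promoter, chr11:107479278-107479577, plus strand: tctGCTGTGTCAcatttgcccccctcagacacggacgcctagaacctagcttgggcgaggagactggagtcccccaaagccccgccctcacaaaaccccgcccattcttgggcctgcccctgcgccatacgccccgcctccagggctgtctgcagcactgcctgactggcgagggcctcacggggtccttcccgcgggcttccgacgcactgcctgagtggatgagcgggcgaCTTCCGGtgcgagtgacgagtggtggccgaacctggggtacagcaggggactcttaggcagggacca
Psmd6 promoter, chr14:14120896-14121195, minus strand: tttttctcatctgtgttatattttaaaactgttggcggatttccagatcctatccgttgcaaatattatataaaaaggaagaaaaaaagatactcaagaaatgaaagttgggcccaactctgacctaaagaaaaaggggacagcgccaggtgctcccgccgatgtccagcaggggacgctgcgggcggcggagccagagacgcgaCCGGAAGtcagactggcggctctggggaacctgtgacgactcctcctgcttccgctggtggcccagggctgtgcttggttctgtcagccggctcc
Psme3 promoter, chr11:101315963-101316262, plus strand: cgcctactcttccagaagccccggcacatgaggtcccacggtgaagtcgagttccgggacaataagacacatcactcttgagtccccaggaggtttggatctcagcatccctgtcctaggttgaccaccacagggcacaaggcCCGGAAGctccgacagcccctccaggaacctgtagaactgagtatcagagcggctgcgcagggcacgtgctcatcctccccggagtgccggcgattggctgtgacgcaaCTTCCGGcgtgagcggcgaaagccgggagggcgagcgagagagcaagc
Psme1 promoter, chr14:55578244-55578543, plus strand: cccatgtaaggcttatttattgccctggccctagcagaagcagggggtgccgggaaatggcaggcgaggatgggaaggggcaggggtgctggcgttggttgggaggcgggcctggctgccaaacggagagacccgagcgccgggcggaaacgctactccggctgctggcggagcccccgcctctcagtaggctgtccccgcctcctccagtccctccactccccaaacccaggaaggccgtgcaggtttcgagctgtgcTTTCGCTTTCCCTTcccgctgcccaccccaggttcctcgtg

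CCGGAAG was found in 15 of the 39 promoters, against 9.93% of the 27025 genes with a promoter in the table. Those 27025 genes were not limited to genes expressed in these libraries, as nearly all members were. Shares among expressed genes were not computed for this or the other motifs. The 15 genes were 3 ATPases, 6 non-ATPase subunits, 2 activators, 2 chaperones, Psmc3ip and, of the core, Psma6 of the alpha ring, with 0 from the beta ring. A match stood in 7 of the 19 members with a promoter that were called higher in CD8+ TILs of both genotypes and in 8 of the 20 others. These calls are from the fits without 3 sparse libraries, described below. With all libraries, no member was called in Sirt2-/- mice. Of the 21 matches in members, 18 began within 100 bases before the start or after it. TGACNNNGC was found in 6 of the 39, Psmb5, Psmb6, Psmc6, Psmd9, Psmd12 and Psme4, against 14.0% of genes. CCAAT, the site of the factor NF-Y, was found in 14 of 39 against 41.1%, and AANNGAAA in 13 of 39 against 26.7%. AANNGAAA can share bases with CCGGAAG, with CCAAT and with a second copy of itself, and the N positions of TGACNNNGC can hold bases of the others. A match describes letters, not binding.

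Total counts ran from 28000949 to 62407851 per library. The Sirt2 transcript was lower in every Sirt2-/- library than in every WT library of the same cell type, at 6.53 to 10.3 against 33.4 to 51.5 CPM in CD8+ TILs and at 0 to 12.2 against 40.7 to 75.6 CPM in CD4+ TILs. CPM values are counts scaled to a common library size, with TMM factors for composition over the 16 libraries. Cd4 and Cd40lg summed to 384 to 664 CPM in the CD4+ libraries and to at most 5.36 CPM in the CD8+ libraries, and Cd8a and Cd8b1 to 1462 to 2047 CPM in CD8+ against 14.0 to 74.9 CPM in CD4+ libraries. A set of 3 libraries stood apart: Sirt2-/- CD4+ replicate 4 had counts for 8169 genes, WT CD4+ replicate 1 for 12587 and WT CD8+ replicate 1 for 14411, against 17730 to 22138 in the other 13. In Sirt2-/- CD4+ replicate 4, 10 of the 47 proteasome genes had no count, while others, such as Psma4, Psmd10, Psmd12 and Psme2b, were far above the other CD4+ libraries. Melanocyte genes summed to 81.5 and 98.5 CPM in the 2 sparse CD4+ libraries and to at most 15.7 CPM in all others. Results are therefore given with all 16 libraries and again without these 3.

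**Figure D1:**
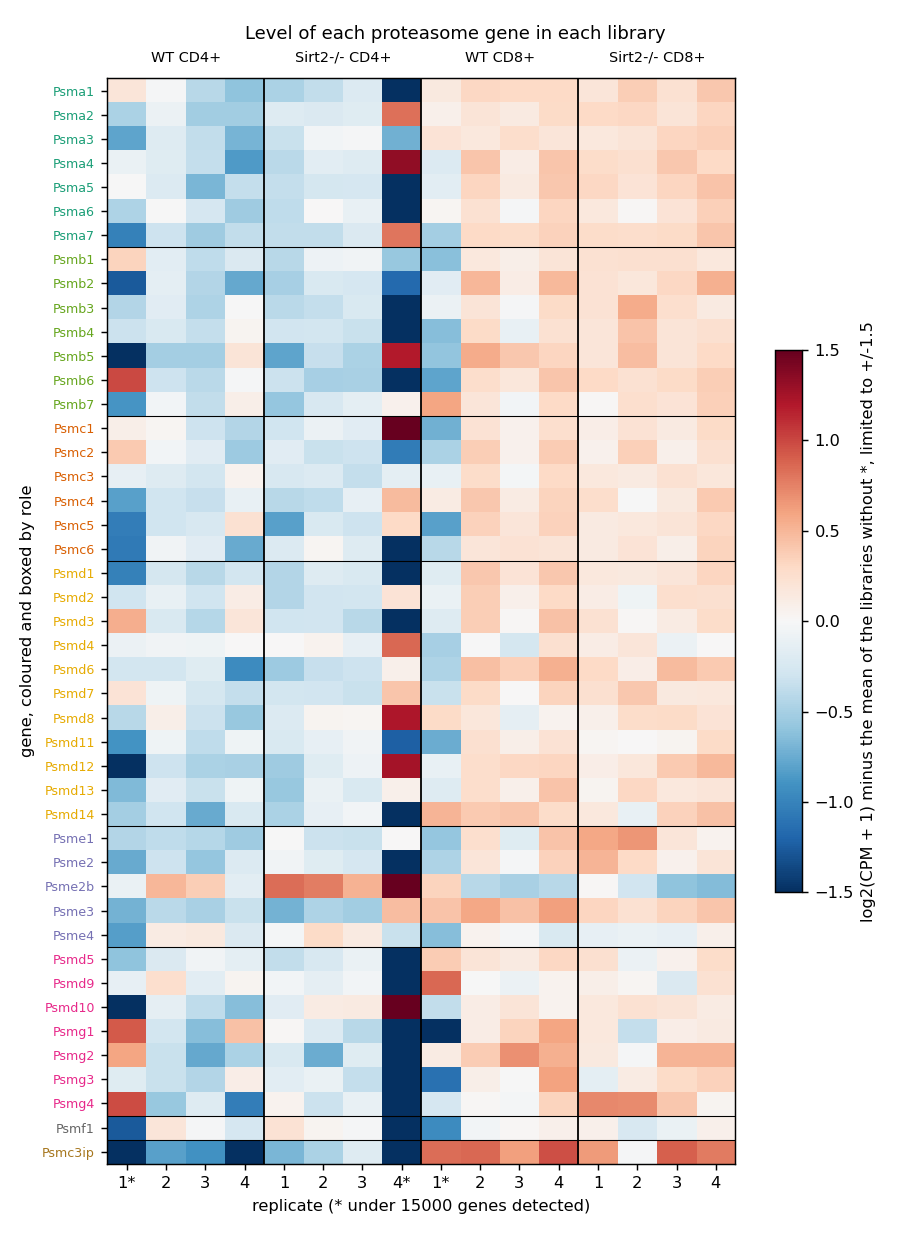
Level of the 45 genes that passed the filter (rows, coloured and boxed by role) in the 16 libraries (columns, by group and replicate), as log2(CPM + 1) minus the gene's mean over the 13 libraries without a star, red higher and blue lower. The columns of Sirt2-/- CD4+ replicate 4 and WT CD4+ replicate 1 are ragged. Outside the starred columns most rows run from blue in CD4+ to red in CD8+ TILs. Psme2b runs the other way, and some rows, such as Psme4, Psmf1 and Psmd4, differ little between the cell types.

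Levels between genes were compared per kilobase of the principal transcript, as a mean over the 13 libraries. The activator pair led: Psme1 stood at 521 CPM per kilobase and Psme2 at 219, and they ranked first and second also per length of all annotated exons. Psma4 and Psma7 of the alpha ring followed at 153 and 147. In the beta ring the order ran from Psmb3 at 72.2 down to Psmb5 at 13.4, with Psmb6 at 69.2 and Psmb7 at 36.3. In the cap, Psmc3 led the ATPases at 84.5 and Psmd4, the ubiquitin receptor, led the non-ATPase subunits at 131, while Psmc6 at 40.9 and Psmd11 at 33.8 were lowest. The chaperones were scarcer, from Psmg4 at 44.6 to Psmg3 at 3.36.

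Some of these levels are uncertain because the genes have near-identical copies. Of all 50-base words in the principal transcript, 57.1% for Psmb5 occur also in transcripts of other genes, among them Psmb5-ps. The share was 69.3% for Psme2b and 59.3% for Psme2, which share words with each other, 55.8% for Psmb3 and 54.5% for Psma5. It was 2.67% for Psmb6 and 0% for Psmb7. How the counting treated reads with several matches is not given in the sources used here. The order is also sensitive to length: Psma7 fell from rank 4 to rank 13 and Psmb3 from 9 to 28 when all annotated exons were used.

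The first comparison asks whether loss of Sirt2 changed proteasome transcripts in CD8+ TILs. No member passed the test, at an adjusted p below 0.05 in edgeR's quasi-likelihood test, against 0.00654% of the 15302 genes tested, that is, 1 gene (Sirt2). DESeq2 and limma-voom called 0 members too, and Psmg4 was the 1 member with an unadjusted p below 0.05 in edgeR. Without the sparse WT library it was 0 of 45 members against 0.0439% of genes, and 1 member was higher and 1 lower at an unadjusted p below 0.05. Of the 45 log2 fold changes then fitted, 43 lay within 0.25 of zero. They ran from -0.37 (SE 0.21) for the chaperone Psmg1 to 0.40 (SE 0.17) for the chaperone Psmg4, with a median of 0.0037 against 0.0086 over all genes. In bulk RNA, fewer cells of a type and less RNA per cell cannot be told apart. With all libraries the median was 0.09, and 33 of 45 were higher in Sirt2-/-, against 24 of 45 without WT CD8+ replicate 1. Of all genes, 51.9% were higher with all libraries and 51.7% without that library.

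Psmg4, Psme3 and Psme1 had the smallest p-values in CD8+ TILs. Psme3, the nuclear activator, stood at 148, 165, 149.6 and 169 CPM in the WT libraries and at 138, 129, 139 and 147 CPM in the Sirt2-/- libraries. Every Sirt2-/- value was below every WT value, by 0.19 on the log2 scale (SE 0.089, edgeR adjusted p = 0.986). Psme3 was the 1 member whose groups did not overlap, while 2.95% of genes had groups that did not overlap. Psmg4 was at 19.6, 23.8, 23.1 and 29.8 CPM in WT and at 39.3, 39.2, 31.4 and 24.1 CPM in Sirt2-/-, so the groups overlapped through 1 Sirt2-/- library (log2 fold change 0.48, SE 0.18, adjusted p = 0.986). Psme1 differed by 0.37 on the log2 scale (SE 0.21, adjusted p = 0.986), and by 0.21 (SE 0.18) without WT replicate 1. The 3 immunoproteasome subunits set aside by the rule had log2 fold changes of 0.26 to 0.37, and none was called. Of these, Psmb9 was higher in every Sirt2-/- than in every WT CD8+ library (0.32, SE 0.11, adjusted p = 0.986), while Psmb8 and Psmb10 overlapped. Without WT replicate 1 the fold changes of the 3 were 0.15 to 0.30, again with none called.

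In CD4+ TILs the same question gave no call among the 45 members either, against 0% of the 15070 genes, where 190 genes had an unadjusted p below 0.05 in edgeR. DESeq2 and limma-voom with all libraries also called 0 members, and Psme2b alone of the members had an unadjusted p below 0.05. Without the 2 sparse CD4+ libraries it was again 0 of 45, against 0.0374% of genes, with Psme2b again the 1 member under an unadjusted p of 0.05. Fold changes then ran from -0.35 (SE 0.19) for the ATPase Psmc5 to 0.79 (SE 0.41) for Psmc3ip on the log2 scale, and 38 of 45 lay within 0.25 of zero. With all libraries, standard errors had a median of 0.37 and reached 1.57, so the count of 0 does not show that the members did not differ. The smallest p-values were those of Psme2b, Psmd8 and Psmd10. Psmd8, a lid subunit of the cap, differed by 0.67 (SE 0.32) with all libraries and by 0.20 (SE 0.17) without the sparse ones. Psmd10, the chaperone gankyrin, differed by 1.61 (SE 0.79) and by 0.44 (SE 0.22), with adjusted p of 0.9999 and 0.990. The groups did not overlap for 3.13% of genes and for 2 members, Psme1 and Psme2b, both higher in Sirt2-/-. For Psme1 the difference was 0.30 (SE 0.15, adjusted p = 0.9999), and 0.24 (SE 0.13) without the sparse libraries.

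**Figure D2:**
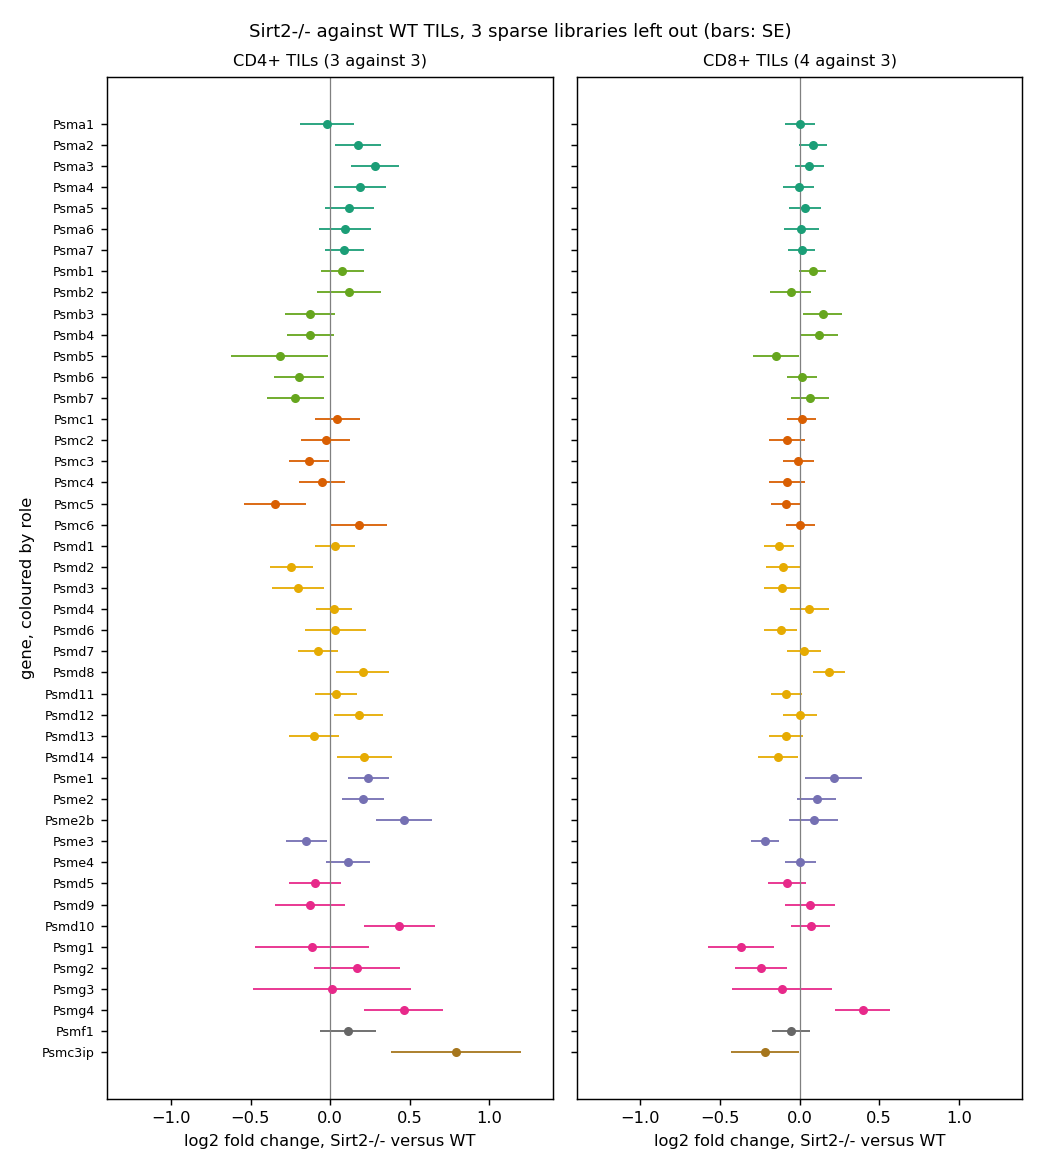
Log2 fold change of Sirt2-/- against WT for the 45 genes in CD4+ (left) and CD8+ TILs (right), from the edgeR fit without the 3 sparse libraries, with bars of 1 standard error and colours by role. Points lie around zero in both panels, and the farthest are Psmc3ip in CD4+ TILs at 0.79 and Psmg4 in CD8+ TILs at 0.40.

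The genotype effect itself was compared between cell types with an interaction term. No member passed the test, against 0% of the 17270 genes tested (342 genes with an unadjusted p below 0.05 in edgeR). The smallest p-values were those of Psme2b, Psmb6 and Psmd10, with interaction terms of -1.75 (SE 0.65), 1.06 (SE 0.48) and -1.45 (SE 0.82) on the log2 scale, and the unadjusted p was below 0.05 for Psme2b and Psmb6. DESeq2 and limma-voom called 0 members. Without the 3 sparse libraries these terms were -0.37 (SE 0.25), 0.21 (SE 0.17) and -0.37 (SE 0.23).

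CD8+ and CD4+ TILs were also compared within each genotype. In WT mice, 5 of the 45 members were called higher in CD8+ TILs and none was called lower, while 11.9% of the 14892 genes were called in either direction and 4.89% were called higher. The members' share in either direction was near that of all genes. The 5 were the activator Psme3, the deubiquitinase of the cap Psmd14, the alpha ring subunits Psma2 and Psma3, and Psmc3ip. In Sirt2-/- mice, no member passed the test, against 2.24% of the 15787 genes, and 9 members were higher and 1 lower at an unadjusted p below 0.05 in edgeR. DESeq2 called 3 members there and limma-voom with sample weights 31. The median standard error of the members there was 0.32, and the count of 0 does not show that they did not differ. The median log2 fold change over the 45 was 0.38 in WT and 0.50 in Sirt2-/- mice, against -0.02 and 0.16 over all genes. In each genotype 38 of 45 were higher in CD8+ TILs, against 48.6% of all genes in WT and 58.4% in Sirt2-/- mice.

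Leaving out the 3 sparse libraries raised these counts by far more than 1.5 times. In WT mice, with 3 against 3 libraries, 25 members were called higher and 1 lower in CD8+ TILs, against 28.0% of all genes called and 14.9% called higher. Among Sirt2-/- libraries, with 4 against 3 libraries, 31 were called higher and 1 lower, against 25.4% of genes called and 13.8% called higher. Leaving out Sirt2-/- CD4+ replicate 4 alone moved the count in Sirt2-/- mice from 0 to 32. Median log2 fold changes were 0.51 in WT and 0.46 in Sirt2-/- mice, where the medians of all genes were 0.0067 and -0.0042. Of the 25 and 31 genes called higher, 23 were the same, and Psme2b was the 1 gene called lower in each.

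**Figure D3:**
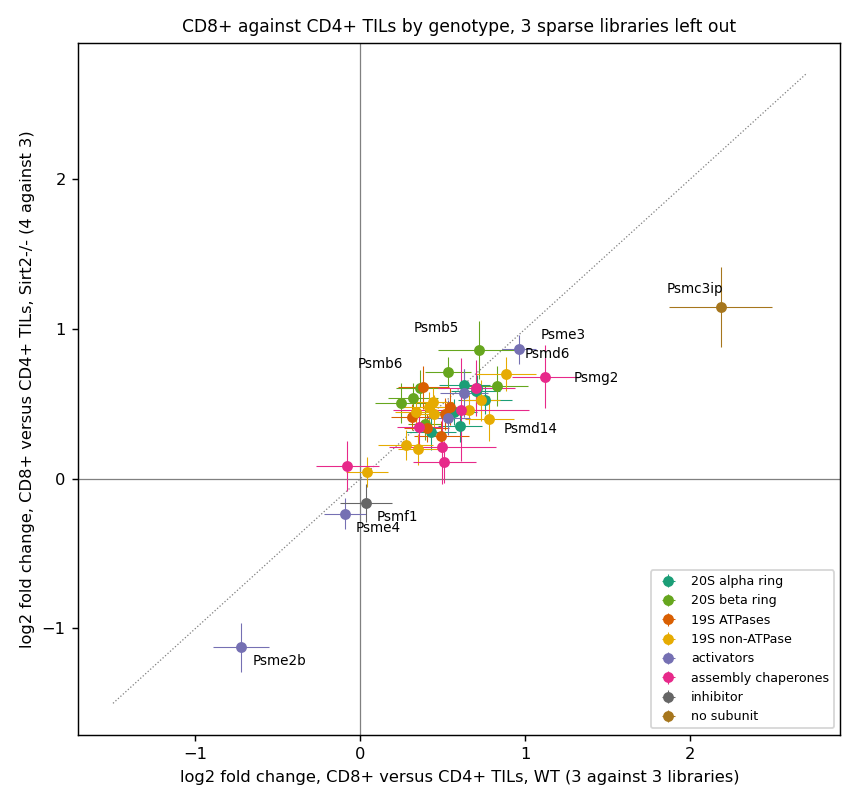
Log2 fold change of CD8+ against CD4+ TILs in WT mice (horizontal axis, 3 against 3 libraries) and in Sirt2-/- mice (vertical axis, 4 against 3), from the edgeR fits without the 3 sparse libraries, 1 point per gene with bars of 1 standard error, and a dotted line where both are equal. Of the 45 points, 42 lie above zero on each axis, against 50.4% of all genes in WT and 49.7% in Sirt2-/- mice. Psmc3ip is farthest to the right at 2.18, and Psme2b is lowest at -0.72 and -1.13.

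The excess in CD8+ TILs was seen in the core and in the cap. Without the sparse libraries, the 7 alpha ring transcripts summed to 557 ± 85.2 CPM (SD, n = 3) in WT CD4+, 619.6 ± 46.8 (n = 3) in Sirt2-/- CD4+, 876 ± 44.5 (n = 3) in WT CD8+ and 888 ± 37.2 (n = 4) in Sirt2-/- CD8+ TILs. The 7 beta ring transcripts summed to 313 ± 33.4 and 298 ± 22.1 CPM in the CD4+ groups and to 424 ± 37.3 and 441 ± 15.9 CPM in the CD8+ groups, in the same order. Both rings were thus higher in every CD8+ than in every CD4+ library of the 13. Of the alpha ring, 6 of 7 genes were called higher in each genotype, with log2 fold changes of 0.57 to 0.75 in WT and 0.35 to 0.62 in Sirt2-/- mice. Psma6 was not called, at 0.43 (SE 0.15) and 0.31 (SE 0.12). Of the beta ring, 3 of 7 were called higher in WT (Psmb1, Psmb2, Psmb6) and all 7 in Sirt2-/- mice. Of all genes, 14.9% in WT and 13.8% in Sirt2-/- mice were called higher in these fits.

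The 6 ATPases summed to 482 ± 25.0 CPM in WT CD4+ and 468 ± 21.2 CPM in Sirt2-/- CD4+ TILs, against 649.7 ± 52.2 and 634 ± 28.1 CPM in the CD8+ groups. For the 11 non-ATPase subunits the sums were 964 ± 65.0 and 954 ± 57.1 against 1302 ± 113 and 1259 ± 46.4 CPM. Beside the counts of calls that follow, 14.9% of all genes in WT and 13.8% in Sirt2-/- mice were called higher. Of the ATPases, 4 of 6 were called higher in WT and 5 of 6 in Sirt2-/- mice, by 0.34 to 0.61 on the log2 scale. Of the non-ATPase subunits, 6 and 7 of 11 were called higher, and all 11 had a fold change above zero in both genotypes. Psmd4 was among those not called, at log2 fold changes of 0.04 (SE 0.13) and 0.05 (SE 0.10). Chaperone sums were 94.6 ± 3.13 and 103 ± 4.91 against 134 ± 8.66 and 136 ± 5.34 CPM, and 2 of the 7 chaperones, Psmg2 and Psmg4, were called higher in both genotypes.

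**Figure D4:**
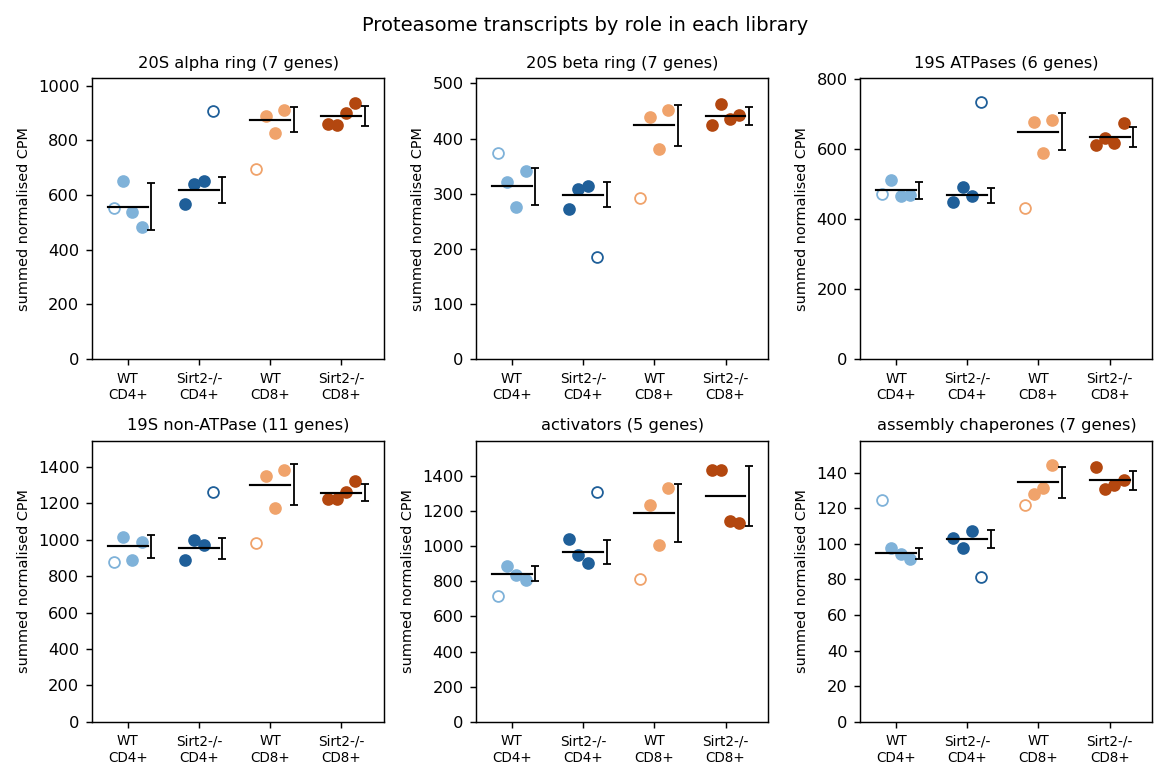
Summed normalised CPM of the genes of each role in each library, by group, with open circles for the 3 sparse libraries, and lines and bars for the mean and SD of the other libraries. The filled circles of the alpha ring, beta ring, ATPases, non-ATPase subunits and chaperones lie higher in both CD8+ groups than in both CD4+ groups, and the open circles fall outside this order in several panels.

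With all 4 libraries of each WT group, 22.7% of genes had groups that did not overlap and 12.6% were higher in every CD8+ library. Of the members, 9 of 45 were, among them Psma2, Psma3, Psmd14 and Psme3. In Sirt2-/- mice the shares were 22.2% and 15.98% of genes, and 21 members were higher and 1 lower without overlap.

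Psma3 stood at 81.8, 125, 110.1 and 87.4 CPM in WT CD4+ and at 164, 159, 171 and 162 CPM in WT CD8+ libraries (log2 fold change 0.62, SE 0.16, edgeR adjusted p = 0.0244). Psma2 was at 63.5, 83.3, 61.3 and 61.2 CPM in WT CD4+ and at 93.5, 101, 97.5 and 108 CPM in WT CD8+ libraries (0.50, SE 0.15, adjusted p = 0.0475). All CD8+ values were above all CD4+ values for both genes, and the margin was narrow for Psma2, whose CD4+ replicate 2 came near. Psma3 in Sirt2-/- mice ran at 112, 138, 140.4 and 86.1 CPM in CD4+ and at 159, 163, 178 and 182 CPM in CD8+ libraries (0.50, SE 0.18, adjusted p = 0.258). Psma2 ran at 77.3, 76.3, 78.1 and 158 CPM in CD4+ and at 109, 110.1, 101 and 111 CPM in CD8+ libraries, where the CD4+ value of 158 came from the sparse replicate 4. Without that library both were called, at 0.35 (SE 0.11, adjusted p = 0.0321) and 0.45 (SE 0.087, adjusted p = 0.0036).

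Psmd14, which removes ubiquitin chains as substrates enter the core, was at 51.6, 59.8, 43.3 and 63.3 CPM in WT CD4+ and at 105, 97.7, 99.1 and 90.1 CPM in WT CD8+ libraries. The log2 fold change was 0.78 (SE 0.15, adjusted p = 0.0071). Psmd14 in Sirt2-/- mice was at 53.0, 67.8, 71.7 and 0 CPM in CD4+ and at 83.0, 68.5, 94.0 and 101 CPM in CD8+ libraries. There the groups overlapped, and the difference did not pass the test with or without replicate 4 (0.40, SE 0.15, adjusted p = 0.0741 without it). The interaction term for Psmd14 without the sparse libraries was -0.35 (SE 0.22) and did not pass the test.

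Psmd6, a lid subunit of the cap, was at 57.3, 57.5, 61.1 and 35.8 CPM in WT CD4+ and at 50.4, 95.7, 89.4 and 101 CPM in WT CD8+ libraries. The groups overlapped only through the sparse WT CD8+ replicate 1. The log2 fold change was 0.60 (SE 0.24, adjusted p = 0.148), and 0.88 (SE 0.18, adjusted p = 0.0045) without the sparse libraries. Its Sirt2-/- levels were 47.3, 54.8, 55.8 and 73.6 CPM in CD4+ and at 85.8, 74.8, 97.1 and 92.1 CPM in CD8+ libraries, with no overlap (0.59, SE 0.18, adjusted p = 0.172). Psmc3, a cap ATPase, had the smallest p-value in Sirt2-/- mice. Its levels were 116, 118, 106 and 123 CPM in CD4+ and 153, 149.9, 160.1 and 154 CPM in CD8+ libraries (0.40, SE 0.11, adjusted p = 0.124).

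None of the catalytic subunits was called in edgeR with all libraries. Psmb5, the chymotrypsin-like subunit, was at 0.699, 7.77, 7.72 and 13.3 CPM in WT CD4+, at 6.21, 8.82, 7.98 and 27.3 CPM in Sirt2-/- CD4+, at 7.29, 17.3, 15.6 and 14.6 CPM in WT CD8+ and at 13.1, 16.2, 13.3 and 14.4 CPM in Sirt2-/- CD8+ libraries. The value of 0.699 rests on 21 counts. Its extremes in CD4+ TILs came from the 2 sparse libraries. Without them, Psmb5 was higher in Sirt2-/- CD8+ TILs by 0.86 (SE 0.19, adjusted p = 0.0075), while 0.72 (SE 0.25, adjusted p = 0.0528) in WT mice did not pass the test.

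Psmb6, the caspase-like subunit, was at 108, 43.1, 40.2 and 52.9 CPM in WT CD4+ and at 30.8, 64.8, 60.7 and 72.1 CPM in WT CD8+ libraries. In these groups the sparse replicates 1 were highest and lowest against the rest of their group, and the fitted difference changed sign with them, from -0.15 (SE 0.33) to 0.53 (SE 0.14, adjusted p = 0.0169) without them. The Sirt2-/- libraries gave 42.7, 37.9, 38.0 and 17.6 CPM in CD4+ and at 66.5, 63.3, 65.6 and 69.8 CPM in CD8+ libraries (0.94, SE 0.29, adjusted p = 0.175, and 0.71, SE 0.099, adjusted p = 0.00055 without replicate 4). Psmb7, the trypsin-like subunit, ran from 22.0 to 44.0 CPM in the 8 CD4+ and from 40.1 to 63.1 CPM in the 8 CD8+ libraries. Its difference passed edgeR's test in Sirt2-/- mice without replicate 4, at 0.50 (SE 0.14, adjusted p = 0.0190). The value in WT mice without sparse libraries was 0.25 (SE 0.16, adjusted p = 0.291), and the interaction term of 0.29 (SE 0.21) did not pass the test.

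The activators split. Psme3 was at 67.1, 82.6, 77.9 and 86.8 CPM in WT CD4+ against the WT CD8+ values of 148 to 169 CPM given above. The log2 fold change was 0.93 (SE 0.13, edgeR adjusted p = 0.0011), with the smallest p-value of all members. In Sirt2-/- CD4+ TILs it was at 66.9, 79.4, 76.4 and, in the sparse replicate 4, 152 CPM. The difference between CD8+ and CD4+ in Sirt2-/- mice was 0.55 (SE 0.25, adjusted p = 0.448), and 0.86 (SE 0.099, adjusted p = 0.00017) without that library.

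Psme1 was at 411, 428, 415 and 386 CPM in WT CD4+ and at 374, 665, 492 and 751 CPM in WT CD8+ libraries. Psme1 in Sirt2-/- mice was at 557, 447, 444 and 559.7 CPM in CD4+ and at 837, 887, 636 and 581 CPM in CD8+ libraries. CD8+ values spread more widely than CD4+ values in both genotypes. Without the sparse libraries the CD8+ excess was 0.63 (SE 0.14, adjusted p = 0.0082) in WT and 0.57 (SE 0.16, adjusted p = 0.0241) in Sirt2-/- mice. Its partner Psme2 was higher by 0.53 (SE 0.13, adjusted p = 0.0123) and 0.41 (SE 0.12, adjusted p = 0.0267). The ratio of Psme1 to Psme2 counts stayed between 2.16 and 3.47 in all 13 libraries.

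Psme4, a large cap that binds the core in the nucleus, was not called in either genotype. It was at 140.3, 142 and 111 CPM in WT CD4+, 126, 157 and 142 in Sirt2-/- CD4+, 133, 127 and 109.8 in WT CD8+, and 119, 120.4, 118 and 136 CPM in Sirt2-/- CD8+ libraries other than the sparse ones, whose values were 72.3, 102 and 82.1 CPM. Log2 fold changes without the sparse libraries were -0.09 (SE 0.13) in WT and -0.23 (SE 0.10, adjusted p = 0.131) in Sirt2-/- mice. The inhibitor Psmf1 ran from 25.0 to 34.9 CPM in the 13 libraries of both cell types, at 0.03 (SE 0.16) and -0.16 (SE 0.13) on the log2 scale. In the sparse libraries it was at 11.9, 0.0179 and 15.0 CPM.

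Psme2b, an intronless copy of Psme2, was the 1 member called lower in CD8+ TILs, by 0.72 on the log2 scale (SE 0.17, adjusted p = 0.0093) in WT and by 1.13 (SE 0.17, adjusted p = 0.00077) in Sirt2-/- mice without the sparse libraries. Its levels were 46.0, 70.2, 64.2 and 44.3 CPM in WT CD4+, 89.3, 84.9, 71.6 and 430.0 in Sirt2-/- CD4+, 62.5, 36.7, 35.2 and 37.0 in WT CD8+, and 49.9, 40.3, 32.3 and 31.2 CPM in Sirt2-/- CD8+ libraries. With all libraries the log2 fold change of Sirt2-/- against WT CD4+ TILs was 1.57 (SE 0.57, adjusted p = 0.9999), which became 0.46 (SE 0.18) without the sparse ones. At chr11:48945354-48946190 on the minus strand (mm10), Psme2b shares 41 bases of its span with 9930111J21Rik1, on the same strand, and lies within the span of Gm12185. Counts of these genes cannot be told apart with certainty.

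The gene 9930111J21Rik1 followed the same order, at 102 to 165 CPM in the 3 WT CD4+, 139.8 to 196 in the 3 Sirt2-/- CD4+, 65.4 to 76.7 in the 3 WT CD8+ and 62.8 to 105 CPM in the 4 Sirt2-/- CD8+ libraries. Gm12185, whose span holds all of Psme2b, did not follow it, at 23.7 to 39.0 CPM in the WT CD4+, 34.2 to 71.7 in the Sirt2-/- CD4+, 28.6 to 37.6 in the WT CD8+ and 40.5 to 111 CPM in the Sirt2-/- CD8+ libraries that were not sparse. The ratio of Psme2b to 9930111J21Rik1 counts lay between 0.389 and 0.607 in all 13 libraries. The ratio of Psme2b to Psme2 counts, in contrast, was 0.248 to 0.466 in the CD4+ and 0.132 to 0.172 in the CD8+ libraries. The part of the neighbouring genes in the Psme2b counts was not tested.

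**Figure D5:**
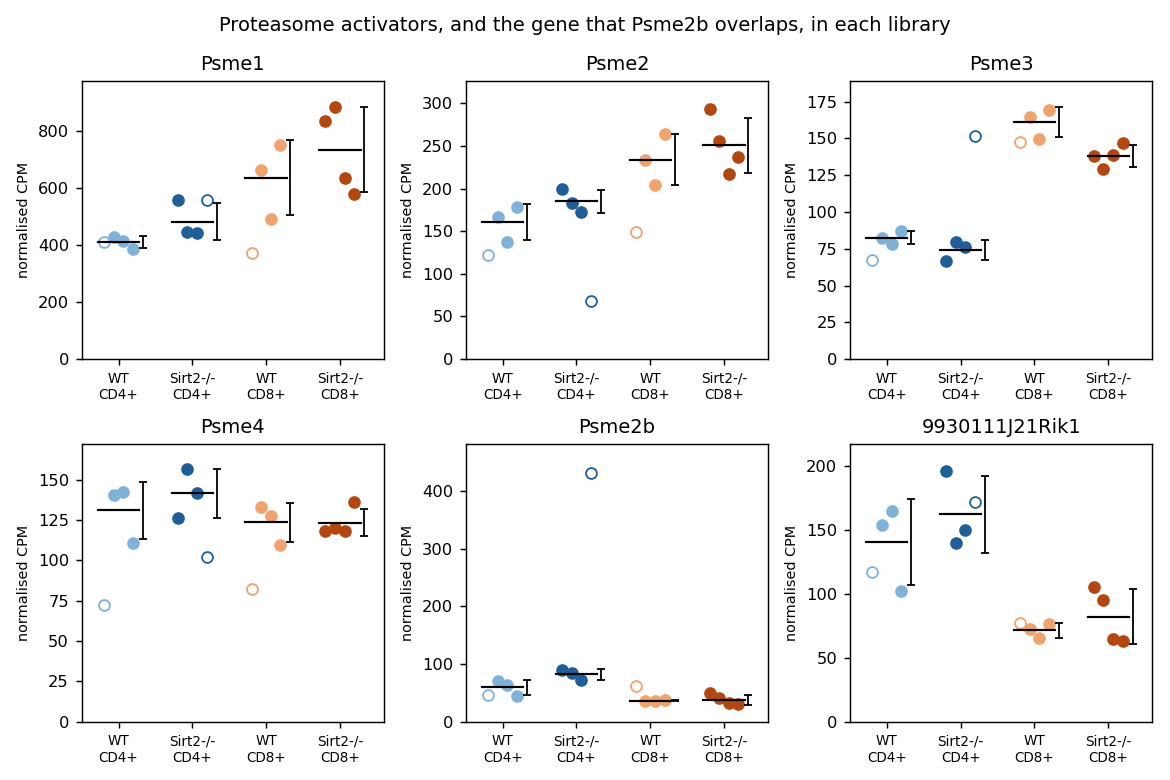
Normalised CPM of the 5 activator genes and of 9930111J21Rik1, which Psme2b overlaps, in each library by group, with open circles for the 3 sparse libraries, and lines and bars for the mean and SD of the others. Psme1, Psme2 and Psme3 are higher in CD8+ TILs among the filled circles, Psme4 overlaps between cell types, and Psme2b and 9930111J21Rik1 are both higher in CD4+ TILs.

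Psmc3ip, the gene that is no subunit, had the largest fold change between CD8+ and CD4+ TILs in WT mice. It was at 0.433, 4.10, 3.79 and 1.85 CPM in WT CD4+ and at 15.0, 15.3, 12.8 and 16.5 CPM in WT CD8+ libraries (log2 fold change 2.46, SE 0.61, adjusted p = 0.0232). Sirt2-/- levels were 4.57, 5.49, 6.85 and 0 CPM in CD4+ and at 13.0, 7.85, 15.8 and 14.4 CPM in CD8+ libraries (1.14, SE 0.27, adjusted p = 0.0098 without replicate 4). The CD8+ libraries were above the CD4+ libraries in both genotypes. Without the sparse libraries the interaction term was -1.01 (SE 0.41), which did not pass the test.

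The immunoproteasome subunits were set against the constitutive subunit that each replaces, as counts per length, without a test. Psmb9 to Psmb6 was 0.941, 0.883 and 1.04 in the WT CD4+ and 1.28, 1.17 and 1.27 in the Sirt2-/- CD4+ libraries that were not sparse. In CD8+ TILs it was 0.601, 0.567 and 0.559 in WT and 0.777, 0.687, 0.682 and 0.592 in Sirt2-/- libraries. Without the sparse libraries, the groups thus stood in the order Sirt2-/- CD4+, WT CD4+ and then both CD8+ groups, which overlapped. The sparse libraries gave 0.489 (WT CD4+), 0.940 (Sirt2-/- CD4+) and 1.02 (WT CD8+), all outside the range of the other libraries of their own group.

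Psmb10 to Psmb7, again without the sparse libraries, ran the other way by cell type, at 0.657 to 1.05 in WT CD4+ against 1.10 to 1.26 in WT CD8+ libraries, and at 0.925 to 1.43 against 1.11 to 1.71 in Sirt2-/- libraries, which overlapped. The sparse libraries gave 0.437 (WT CD4+), 0 (Sirt2-/- CD4+) and 0.672 (WT CD8+), so that with all libraries the WT groups overlapped too. Psmb8 to Psmb5 without the sparse libraries was 19.8 to 26.1 in WT CD4+, 23.9 to 35.0 in Sirt2-/- CD4+, 14.8 to 19.8 in WT CD8+ and 19.02 to 24.0 in Sirt2-/- CD8+ libraries. In the sparse libraries it was 236 (WT CD4+), 8.93 (Sirt2-/- CD4+) and 24.9 (WT CD8+). Its denominator is the Psmb5 count, the lowest of the beta ring, with the shared words given above. In the fit without the sparse libraries, Psmb10 was higher in CD8+ TILs of both genotypes, by 0.66 (SE 0.20) and 0.82 (SE 0.14). Psmb8 was called higher in Sirt2-/- mice (0.43, SE 0.092) and stood at 0.31 (SE 0.15) in WT mice, with an interaction term of 0.16 (SE 0.18) that did not pass the test. Psmb9 was at -0.21 (SE 0.16) and -0.15 (SE 0.11) and was not called.

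Other genes of the pathway were set beside the same comparison without the sparse libraries. Of all genes, 28.0% were called there in WT and 25.4% in Sirt2-/- mice, and 14.9% and 13.8% were called higher. Of 10 further proteasome factors, 5 were called higher in WT CD8+ TILs and 3 in Sirt2-/- CD8+ TILs, and none was called lower. The cap-bound deubiquitinases Usp14 and Uchl5 were higher by 1.09 (SE 0.18) and 1.08 (SE 0.16) in WT and by 0.64 (SE 0.13) and 0.52 (SE 0.12) in Sirt2-/- mice. Pomp, which guides maturation of the core, was higher by 0.71 (SE 0.18) and 0.49 (SE 0.12). Of 14 genes for ubiquitin and substrate delivery, 2 were higher and 1, the ubiquitin gene Ubb, was lower in WT mice, while 2 were higher and 0 lower in Sirt2-/- mice. For these 14 genes the share called was below that of all genes in both genotypes. Of 4 genes that control proteasome expression, Ddi2, the protease that activates NFE2L1, was lower in CD8+ TILs in both genotypes, by 0.75 (SE 0.13) and 0.74 (SE 0.11) on the log2 scale, and Ngly1 was higher by 0.30 (SE 0.095) in Sirt2-/- mice. Nfe2l1 and Nfe2l2 were not called.

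Markers of cell state moved with the comparison of cell types. The 6 cell-cycle genes summed to 462 to 885 CPM in WT CD4+ and 897 to 1517 CPM in WT CD8+ libraries that were not sparse, and to 258 to 639 and 666 to 1278 CPM in Sirt2-/- libraries. Of these 6 genes, 5 were called higher in WT and 3 in Sirt2-/- CD8+ TILs, against 14.9% and 13.8% of all genes. Of 5 interferon gamma response genes, 4 were called lower in WT and 1 in Sirt2-/- CD8+ TILs, where 28.0% and 25.4% of all genes were called in either direction. The 5 interferon genes summed to 1532 to 2292 against 942 to 1211 CPM in WT libraries, and to 2138 to 3316 against 1191 to 2833 CPM in Sirt2-/- libraries. Between genotypes, all 5 were higher in Sirt2-/- CD8+ TILs with and without the sparse library (median log2 fold changes 0.63 and 0.58). In CD4+ TILs, 5 were higher with all libraries, and 4 were higher and 1 lower without the sparse ones (medians 0.63 and 0.44). None of the 5 was called for genotype. The part of cell cycling or of interferon in the proteasome differences was not tested. Macrophage genes summed to at most 34.5 CPM and B cell genes to at most 5.96 CPM in all 16 libraries. Without the sparse libraries, macrophage sums were 5.87 to 8.73 CPM in WT and 8.60 to 34.5 CPM in Sirt2-/- CD8+ TILs. In CD4+ TILs they were 7.88 to 14.5 and 6.65 to 30.5 CPM. The 7 macrophage genes tested were all higher in Sirt2-/- TILs of each cell type, against 51.7% (CD8+) and 49.8% (CD4+) of all genes. None was called, and their part in the results was not tested. Stromal genes reached 56.9 CPM in Sirt2-/- CD4+ replicate 2 and 56.5 CPM in Sirt2-/- CD8+ replicate 4, against at most 18.0 CPM in the other Sirt2-/- and 11.1 CPM in the WT libraries, and their part in the results was not tested.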

How the data were processed

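Total RNA from TILs was made into stranded, ribosomal RNA-depleted libraries from 1 ng of input and sequenced on an Illumina instrument. The deposited values are raw counts per gene, made by the authors. Their processing notes name STAR, HTSeq and the mm10 build, with versions not given in the sources used here. All 55450 gene identifiers matched GENCODE M21 with their versions, and transcript lengths, exon overlaps and 50-base words were taken from that annotation. Titles gave each sample its cell type and genotype, with 4 libraries in each of 4 groups.

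Tests were run on the counts with edgeR 4.0.16 under R 4.3.3 (TMM normalisation, filterByExpr, robust quasi-likelihood fits), separately for each comparison of 2 groups, and over all 16 libraries for the interaction of genotype and cell type. P-values were two-sided and adjusted by the Benjamini-Hochberg method over all genes tested, and genes below 0.05 were called. CPM values in the text use TMM factors over the 16 libraries. Alternatives were DESeq2 1.42.0, limma 3.58.1 (voom with sample weights), other size factors, filters and thresholds, 1 model for all groups, a replicate block, each library left out in turn, and the 3 libraries with counts for fewer than 15000 genes left out together. The fitting code was tested on simulated data, where the smaller planted changes were missed in the comparisons that hold Sirt2-/- CD4+ replicate 4. Most of the larger planted changes were missed there too. In the other comparisons of 2 groups, most of the smaller planted changes were also missed, so a lack of calls there does not show equality either. Total counts of 28000949 to 62407851 do not by themselves give the precision. The library with the most counts, Sirt2-/- CD4+ replicate 4, had the fewest genes with a count. Genes under about 10 counts in a library carry mostly counting error.

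The members and lists were chosen with earlier results of these data known. Genes are named where they are catalytic, activator, inhibitor or tissue-restricted genes or Psmc3ip, where they were called (at most 10 per comparison), where they had 1 of the 3 smallest p-values of a comparison, or where they had the highest or lowest level of their role. Psmg1, Psmg2, Psmc5, Psma7, Psmd12, Psmb3 and the other genes given outside this rule were named after their values were seen. The residuals of libraries with the same replicate number correlated by -0.14 to 0.14 across genes averaging 100 or more counts. Pairs of CD8+ and CD4+ libraries of 1 genotype, which could share a mouse, were all above zero. Their correlations ran from 0.076 to 0.14 in WT and from 0.012 to 0.14 in Sirt2-/- mice. Not every pair passed 0.1, so the numbers were not treated as pairs, and shared mice remain possible.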

Additional observations from a re-analysis of the deposited data

Results flagged for a closer look

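Among the 96 groups of 4 libraries checked, 14 held a library far from the other 3, where chance gives about 1 in 20, that is 4.8. Of the 14, 6 were in Sirt2-/- CD4+ replicate 4: ATPases summed to 734 CPM, Psma2 was at 158, Psmb5 at 27.3, Psme2b at 430.0, Psme3 at 152 and Psmf1 at 0.0179 CPM. In WT CD8+ replicate 1, Psmb9 to Psmb6 was 1.02, Psme2b was at 62.5 CPM and Psmf1 at 15.0 CPM. In WT CD4+ replicate 1, Psmb8 to Psmb5 was 236. These 10 lie in the 3 sparse libraries. The other 4 were the ATPase sum of 511 CPM and the Psma2 level of 83.3 CPM in WT CD4+ replicate 2, Psmd6 at 35.8 CPM in WT CD4+ replicate 4 and Psme4 at 136 CPM in Sirt2-/- CD8+ replicate 4.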

How the results depend on the processing

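No member was called for genotype in either cell type or for the interaction under any alternative run, DESeq2 and limma-voom included. For CD8+ against CD4+ TILs in WT mice, 5 members were called, against 9 with DESeq2, 31 with limma-voom and sample weights, 11 without a filter on low counts, 9 with at least 10 counts in every library, 2 with all 16 libraries in 1 model, 8 at an adjusted p below 0.1, and 26 without the 3 sparse libraries. Leaving out 1 library gave 2 (without CD8+ replicate 3 or 4) to 12 (without CD4+ replicate 1). In Sirt2-/- mice, 0 became 3 with DESeq2, 31 with limma-voom, 4 with at least 10 counts in every library (33 members tested, the others gave no value), 1 with all 16 libraries in 1 model and 32 without the sparse libraries. Leaving out 1 library gave 0 to 32, where 32 came without CD4+ replicate 4. With replicate number as a block, 6 were called in WT and 0 in Sirt2-/- mice. Because the labels give no origin for the numbers, whether the block stands for shared mice is not known.

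The 39 fold changes of single genes followed through the alternatives do not cover every member. Among them, directions turned for 4 genes that were not called. Psmb6 in WT mice went from -0.15 to 0.50 with limma-voom and 0.53 without the sparse libraries, and ran from -0.30 to 0.32 without 1 library, above zero without CD4+ or CD8+ replicate 1. Psme4 in WT mice (-0.12) ran from -0.2184 to 0.0588 without 1 library, above zero without CD4+ replicate 3 or CD8+ replicate 1. Psmb5 in Sirt2-/- mice (0.17) ran from -0.0669 without CD4+ replicate 1 to 0.858 without CD4+ replicate 4. Psmf1 in WT mice, at -0.0042, became 0.0295 with DESeq2 or its size factors, 0.0836 without a filter, 0.0781 in 1 model, 0.0443 with at least 10 counts, 0.0335 without the sparse libraries and 0.0492 with the block, and ran from -0.16 to 0.25 without 1 library. In Sirt2-/- mice, at 0.26, it became -0.0848 with limma-voom and -0.16 without the sparse library, and ran from -0.16 to 0.50 without 1 library. The causes were not tested. Of the other values of these fold changes, 545 kept direction and side of the threshold, 58 passed it newly and 17 no longer passed it.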
